A study of Rattus norvegicus with 84 samples.

Results

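The genes described here are the messenger and transfer RNA genes of the rat mitochondrial genome, which were chosen by name from the rows of the count table. The rule took the 13 messenger RNA genes ND1 to CYTB and the 22 transfer RNA genes named Trn and an amino acid letter, so that 35 of the 41919 genes in the table are members. Trnt1 and Trnp1 match the name pattern but are nuclear genes, and they were left out. The ribosomal RNA genes mt-Rnr1 and mt-Rnr2 are written in another way in the table, did not match the rule and are used for comparison only. In the table the members stand in the order that the mitochondrial genome is known to have in mammals, from Trnf to Trnp, and this order was used to say which genes are neighbours.

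Mitochondrial DNA is a small circle that is copied into long RNAs running over many genes on each strand. In the classical description, the transfer RNAs stand between the other genes like punctuation marks, and nucleases that cut them out at both ends also set the messenger and ribosomal RNAs free. The messenger RNAs encode the subunits of the respiratory chain that the nucleus does not supply, and neurons are known for their high demand on that chain. Mature transfer RNAs are short, folded and chemically modified, and they carry amino acids to the mitochondrial ribosome.

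The samples are bulk RNA-seq libraries from the nucleus accumbens of wild-type Long-Evans rats, a ventral striatal region, taken from its core (Core) or its shell (Shell). The series compared withdrawal with extinction after cocaine. Each subregion holds 3 conditions, written Ext, HC and Ctx, and each condition holds a drug group written Coc and one written Sal. The labels used here do not spell out these abbreviations, and Coc and Sal are read as cocaine and saline. With 2 subregions, 3 conditions and 2 drug groups there were 12 groups of 7 libraries, 84 in all. Library names begin with a series number (1 and 2 in Core, 3 and 4 in Shell) or end in F, and only the F series holds both subregions. The labels do not say that libraries of a group came from separate animals, so the p-values measure the spread between these libraries. In bulk tissue, fewer cells of a type and less RNA per cell cannot be told apart.

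Total counts per library ranged from 13.6 M to 22.5 M, with a median of 17.1 M counts. No pair of libraries held identical values. All 8 striatal neuron markers were detected, with a summed level of 249 to 2020 counts-per-million (CPM) in Core and 572 to 1660 CPM in Shell. One library, Core Ctx_Coc 17-F, stood apart. As a measure of reads outside expressed genes, the counts of 2033 olfactory and vomeronasal receptor genes, which brain tissue is not known to express widely, were summed in each library. This receptor background had a median of 1010 CPM, a lowest value of 72.4 CPM and a highest value of 4395 CPM, which was that of 17-F (2397 CPM without that library).

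The messenger RNAs took 0.576% to 3.30% of all counts in a library, with a median of 2.07%. The transfer RNAs took 0.0208% to 0.0925%, with a median of 0.0427%, and the ribosomal RNAs 0.642% to 9.70%, with a median of 6.90%. There were between 0.847 and 12.6 transfer RNA counts for every 100 messenger RNA counts, with a median of 2.06. Transfer RNA genes are only 60 to 75 bases long in the table, against 204 bases (ATP8) to 1830 bases (ND5) for the messenger RNA genes. Counts on them were fewer, with medians over the libraries from 75 (Trnl2) to 1065 (Trny), against 1585 (ND3) to 61774 (ATP6) for the messenger RNA genes.

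On the per-length scale of the deposited FPKM (fragments for each kilobase of gene, scaled to the library total), the most abundant messenger RNA belonged to complex V, the ATP synthase. ATP6, a subunit of its proton channel, had a median of 5396 FPKM over the 84 libraries and was the highest messenger RNA gene in 84 of 84. ATP8, which overlaps ATP6 and shares its transcript, had a median of 2186 FPKM. The complex IV subunits COX3, COX1 and COX2, the mitochondrial core of cytochrome c oxidase, had medians of 2595, 2311 and 1556 FPKM. CYTB, the mitochondrial subunit of complex III, had a median of 1631 FPKM.

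The 7 complex I genes spread widest. ND1 (median 1862 FPKM) and ND4 (1795 FPKM) were near CYTB in level, followed by ND2 (1241 FPKM), ND4L (1046 FPKM) and ND5 (846 FPKM). ND6, the only messenger RNA gene on the opposite strand, had a median of 742 FPKM. ND3 had a median of 274 FPKM and was the lowest messenger RNA gene in 84 of 84 libraries. Neighbours in the order of medians overlapped in their ranges over the libraries in every case, including ATP6 above COX3 and ND6 above ND3.

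Among the transfer RNA genes, those for tyrosine (Trny, median 943 FPKM) and methionine (Trnm, 848 FPKM) led, followed by those for tryptophan (Trnw, 477 FPKM), alanine (Trna, 370 FPKM) and serine (Trns1, 370 FPKM). The lowest medians were those of Trni (73.6 FPKM), Trnf (72.0 FPKM), Trnd (66.5 FPKM) and Trnl2 (62.8 FPKM). The medians of 7 transfer RNA genes were above that of ND3, the lowest messenger RNA gene. Trny was first among the transfer RNA genes in 45 libraries and Trnm in 17, whereas 8 other genes were first in at least 1 library. The transfer RNA genes did not share one order over the libraries, in contrast to the fixed top and bottom of the messenger RNA genes.

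**Figure D1:**
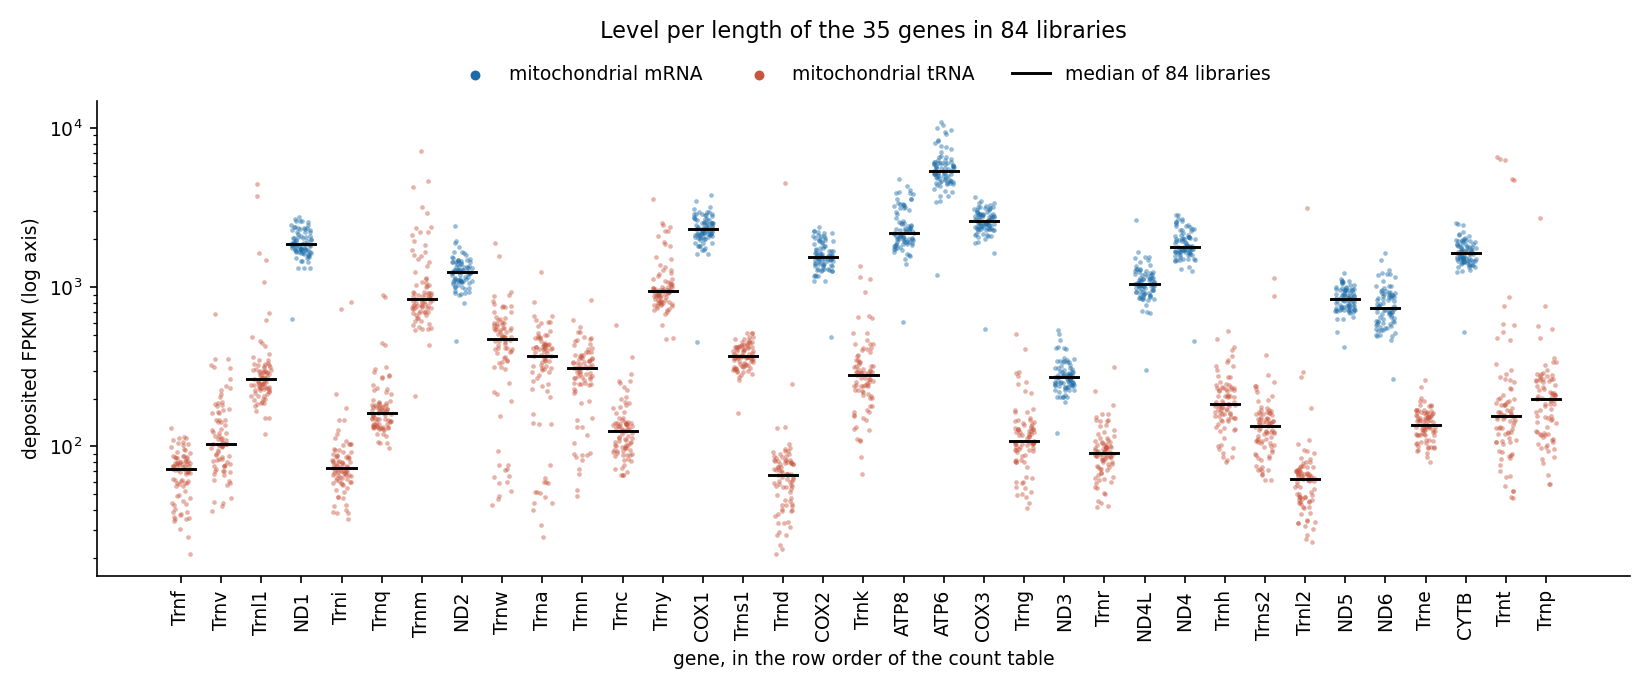
Level of each of the 35 mitochondrial genes in the 84 libraries, in the order of the table, as FPKM on a log axis, with each library as a point and the median as a bar. Points of the messenger RNA genes stay close to their medians apart from library 17-F, which is the lowest in 13 of 13, whereas single points of several transfer RNA genes lie far above theirs.

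Several transfer RNA genes varied more between libraries than the messenger RNAs did. The ratio of the 90th to the 10th percentile of CPM was between 1.45 and 2.06 for the messenger RNA genes. It was above 3 for 9 transfer RNA genes and for 0 messenger RNA genes, with 10.7 for Trnw, 10.4 for Trna, 7.12 for Trnt and 5.11 for Trnn. Trns1 (1.51) and Trne (1.77) lay within the range of the messenger RNA genes. The biological coefficient of variation that edgeR fitted, after group and F series were accounted for, was 0.354 to 0.425 for the messenger RNA genes, 0.998 for Trnt and 0.680 for Trnl1, against a median of 0.334 over all genes tested. This measure did not separate the classes, since Trne (0.198), Trnf (0.216), Trnr (0.270), Trnh (0.271) and Trnc (0.296) were below every messenger RNA gene. Trnt, the transfer RNA for threonine, was at percentile 99.8 of that measure among all genes.

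The share of counts on the messenger RNAs was similar over the 12 groups. In Core, the lowest, median and highest library had 0.576%, 1.89% and 2.71% in Ctx_Coc (1.53%, 1.94% and 2.71% without 17-F) and 1.89%, 2.03% and 2.87% in Ctx_Sal. These values were 1.64%, 2.29% and 3.07% in Core Ext_Coc, 1.56%, 1.95% and 2.67% in Ext_Sal, 1.51%, 1.96% and 3.18% in HC_Coc and 1.56%, 1.89% and 3.30% in HC_Sal. Every Core group overlapped with every other. In Shell the values were 1.86%, 2.13% and 2.24% in Ctx_Coc, 1.86%, 2.22% and 2.38% in Ctx_Sal, 1.86%, 2.00% and 2.84% in Ext_Coc, 1.66%, 1.91% and 2.37% in Ext_Sal, 2.01%, 2.16% and 2.74% in HC_Coc and 1.95%, 2.16% and 2.66% in HC_Sal. The Shell groups overlapped as well, and their range, 1.66% to 2.84%, lay within that of Core.

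For the transfer RNAs, the lowest, median and highest shares in Core were 0.0400%, 0.0514% and 0.0728% in Ctx_Coc, 0.0255%, 0.0343% and 0.0460% in Ctx_Sal, 0.0208%, 0.0358% and 0.0905% in Ext_Coc and 0.0268%, 0.0480% and 0.0846% in Ext_Sal. They were 0.0376%, 0.0418% and 0.0576% in Core HC_Coc and 0.0300%, 0.0375% and 0.0925% in HC_Sal. In Shell, Ctx_Coc had 0.0374%, 0.0447% and 0.0483%, Ctx_Sal 0.0224%, 0.0402% and 0.0844%, Ext_Coc 0.0337%, 0.0427% and 0.0616% and Ext_Sal 0.0326%, 0.0409% and 0.0757%. One pair of drug groups did not overlap in this sum: Shell HC_Coc had 0.0494%, 0.0657% and 0.0920%, above Shell HC_Sal with 0.0327%, 0.0426% and 0.0454%. In single genes, 0 of the 210 combinations of a member and a drug pair had groups that did not overlap, against 0.0109% of such combinations over all genes tested.

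**Figure D2:**
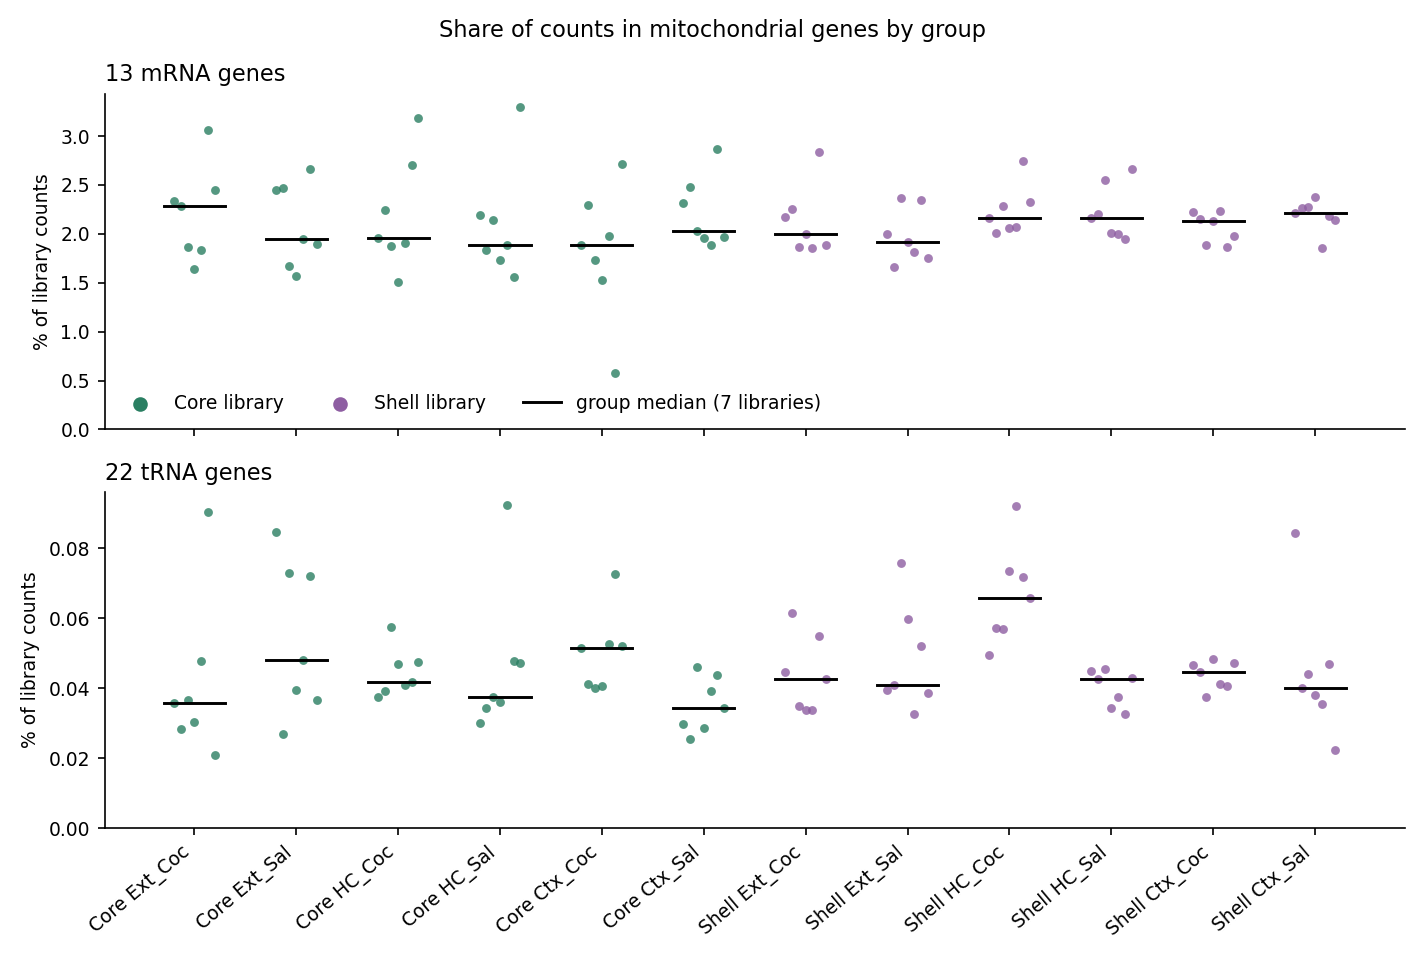
Share of all counts on the mitochondrial messenger RNAs (upper panel) and transfer RNAs (lower panel), in percent, for each of the 12 groups, with each library as a point and the group median as a bar. Groups overlap in the messenger RNAs, with Core Ctx_Coc 17-F at 0.576% below all other libraries, and in the transfer RNAs Shell HC_Coc (0.0494% to 0.0920%) lies above Shell HC_Sal (0.0327% to 0.0454%).

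The first question of the design was whether cocaine and saline groups differed. Each gene was tested with edgeR's quasi-likelihood F test within a subregion, with series as a covariate and p-values adjusted over all genes tested (Benjamini-Hochberg, threshold 0.05). In each of the 6 Coc against Sal comparisons, 0 of 13 messenger RNA and 0 of 22 transfer RNA genes passed, with a background of 0% of all genes. DESeq2's Wald test also gave 0 members in each of the 6. Values below are log2 differences, Coc minus Sal, on the fitted CPM scale.

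Differences of the messenger RNAs were small and mostly shared one sign within a comparison. The median was 0.20 in Core Ext (12 of 13 above 0), 0.14 in Core HC (12 of 13 above 0), 0.19 in Shell Ext (13 of 13 above 0) and 0.12 in Shell HC (13 of 13 above 0), whereas the medians of all genes were between -0.10 and -0.01. These directions did not hold throughout. With the receptor background as a covariate the median was -0.17 in Core HC (0 of 13 above 0), -0.06 in Shell HC (4 of 13) and 0.02 in Core Ext (9 of 13). Without the F series it was -0.02 in Core Ext (6 of 13 above 0), -0.03 in Core HC (4 of 13) and 0.01 in Shell HC (9 of 13). In Ctx the sign was the other way, with a median of -0.19 in Shell (0 of 13 above 0) and -0.49 in Core (0 of 13 above 0), against all-gene medians of 0.01 and 0.03. Of these 78 values, 1 had an unadjusted p under 0.05, that of ND3 in Shell HC. The 13 genes are copied within shared long transcripts and are not independent observations.

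The size of the Core Ctx value varied with the libraries in the fit. COX1, the catalytic core of cytochrome c oxidase, ranged from 701 to 4306 CPM with a median of 3153 in Ctx_Coc and from 3374 to 4921 CPM with a median of 3909 in Ctx_Sal, and the groups overlapped. Its log2 difference was -0.58 ± 0.34 (SE). The library at 701 CPM is 17-F, which was the lowest of all 84 for 13 of 13 messenger RNA genes and for Trnm and Trns1, and the highest for 5 transfer RNA genes, among them Trna at 86.0 CPM. Without it the median messenger RNA difference was -0.28 (1 of 13 above 0). It was -0.67 without 19-F and -0.47 without the F series (13 of 13 below 0 in both, with 7 at an unadjusted p under 0.05 in the latter), and with the receptor background as a covariate it was -0.14 (4 of 13 above 0). With DESeq2's size factors the all-gene median of this comparison moved from 0.03 to 0.15.

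The transfer RNAs in the same Core Ctx comparison lay on the other side, with a median of 0.47 and 18 of 22 above 0. At an unadjusted p under 0.05 there were 9 transfer RNA genes, in a comparison in which 3407 of 31370 genes had such a p. Without 17-F there were 4 transfer RNA genes, where 563 of 31433 genes had such a p, and the transfer RNA median was 0.35 (0.23 without the F series). The lowest p among the members was that of Trns2, a transfer RNA for serine, with a log2 difference of 1.08 ± 0.29 (SE) and an edgeR adjusted p of 0.43. It was 0.40 without library 1-14, where Trns2 was at 52.8 CPM or 6.57 times its median. Trni (isoleucine), Trnv (valine) and Trna (alanine) differed by 1.24, 1.04 and 1.01, and Trnp (proline) by 0.68 ± 0.25 (SE). Without 19-F, Trni was at 0.23 and Trnv turned to -0.04, whereas without 17-F, Trna was at 0.57 and Trnp at 0.47. None of them passed.

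Shell HC was the comparison whose summed transfer RNA share did not overlap, and the sum was made of different genes in different libraries. In the 7 Coc libraries the gene with most transfer RNA counts was Trnm in 3-8 (29.8% of the transfer RNA counts), Trnp in 3-9 (32.5%), Trnm in 4-7 (20.9%), Trnl1 in 4-8 (38.0%), Trnd in 4-9 (33.6%), Trnm in 6-F (44.6%) and Trnl2 in 14-F (33.9%). When Trnd, Trnl1, Trnl2, Trnm, Trnp and Trnt were left out, a choice made after their values were seen, the other 16 genes took 0.0255% to 0.0365% in HC_Coc (median 0.0314%) and 0.0221% to 0.0327% in HC_Sal (median 0.0290%), and the groups overlapped. Leaving out genes seen to be high favours overlap, so what made the sums differ was not tested by this. In this comparison 20 of 22 transfer RNA genes were above 0 with a median of 0.18, against -0.01 over all genes. An unadjusted p under 0.05 was found for 6, without an all-gene count beside it. None passed, and the lowest edgeR adjusted p was 0.89.

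Single genes of the Shell HC comparison differed in which Coc libraries were high. Trnd, the transfer RNA for aspartate, had 5.61, 6.07, 6.24, 4.13, 310, 2.66 and 4.01 CPM in the Coc libraries (in the order 3-8, 3-9, 4-7, 4-8, 4-9, 6-F and 14-F) and 4.87, 5.28, 5.07, 3.22, 4.68, 2.55 and 4.08 CPM in the Sal libraries (3-11, 3-12, 4-10, 4-11, 4-12, 8-F and 16-F). The Coc library 4-9 was far above the rest, 3 others (5.61, 6.07 and 6.24 CPM) lay just above the highest Sal value of 5.28 CPM, and 3 lay among the Sal values. The fitted log2 difference of Trnd, 3.25 ± 0.71 (SE, edgeR adjusted p = 0.89), was 0.22 without library 4-9.

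Trnl2, one of the leucine transfer RNAs, had 4.77, 4.46, 5.70, 4.58, 3.97, 2.39 and 223 CPM in Shell HC_Coc and 5.57, 4.52, 4.46, 3.66, 3.18, 3.56 and 3.43 CPM in HC_Sal. Its log2 difference of 2.27 ± 0.59 (SE) was 0.23 without library 14-F. The other leucine transfer RNA, Trnl1, had 20.6, 22.0, 28.8, 279, 111, 14.3 and 17.1 CPM in Coc and 21.1, 18.1, 23.5, 17.7, 18.3, 15.6 and 20.3 CPM in Sal. Here 2 Coc libraries were high, and the difference of 1.78 ± 0.40 (SE) was 0.89 without 4-8.

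Trnm, which starts translation as well as reading internal methionine codons, was high in more than 1 Coc library of Shell HC. Its values were 147, 59.0, 119, 54.2, 219, 321 and 78.5 CPM in Coc and 63.3, 55.6, 63.3, 51.1, 48.7, 71.6 and 94.2 CPM in Sal, so that 4 of the 7 Coc libraries were above every Sal library. The same count of 4 was found for Trnd, Trna, Trnn and ND3. The log2 difference of Trnm was 1.32 ± 0.35 (SE), with an edgeR adjusted p of 0.89, and it was 1.17 without the F series and 0.88 with the receptor background as a covariate. Trnp and Trns2 each had 1 high Coc library (186 CPM in 3-9 and 68.4 CPM in 4-8), with differences of 1.37 ± 0.41 and 1.06 ± 0.39 (SE).

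Among the messenger RNA genes of the same Shell HC comparison, ND3, a small complex I subunit, had 118, 118, 88.3, 148, 90.6, 177 and 91.9 CPM in Coc and 104, 99.2, 95.3, 89.4, 89.9, 71.2 and 96.0 CPM in Sal. The groups overlapped, and the log2 difference of 0.51 ± 0.20 (SE) did not pass. COX1 had medians of 3695 CPM in Coc and 3613 CPM in Sal, with a difference of 0.12 ± 0.17 (SE).

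Single high libraries of transfer RNA genes were not limited to Shell HC. Counting libraries above 4 times the median of the gene over all 84, 31 of the 1848 pairs of a transfer RNA gene and a library qualified. They involved 13 of the 22 transfer RNA genes and 22 libraries, 15 from Coc and 7 from Sal groups, and 6 of these libraries were high for more than 1 gene. No messenger RNA gene had such a library (0 of 13), but the messenger RNA genes have higher counts. The share of such pairs over all genes is not given here.

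Trnt had the most of these. It reached 431 CPM in 1-5 and 444 CPM in 2-4 (both Core Ext_Sal), 318 CPM in 2-12 (Core HC_Sal), 424 CPM in 3-17 (Shell Ctx_Sal) and 322 CPM in 4-4 (Shell Ext_Sal), 30.7 to 42.9 times its median of 10.3 CPM. All 5 are Sal libraries, a property noticed in the data, and in 2-4 this one gene held 60.7% of the transfer RNA counts. The next highest, 57.9 CPM in Shell Ctx_Coc 3-14 and 51.5 CPM in Core Ctx_Coc 17-F, were Coc libraries at 5.59 and 4.98 times the median.

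The differences of Trnt between Coc and Sal follow those libraries. In Core Ext the Coc libraries had 3.23 to 9.89 CPM (median 6.30) and the Sal libraries 431, 3.78, 444, 11.2, 12.8, 5.88 and 6.97 CPM, and the groups overlapped. The log2 difference was -4.003 ± 1.02 (SE, edgeR adjusted p = 0.92). It was -2.89 without 1-5 and -3.05 without 2-4. In Core HC the value of -1.59 became 0.73 without 2-12, in Shell Ctx the value of -1.11 became 1.07 without 3-17, and in Shell Ext the value of -2.34 became -0.42 without 4-4.

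Other genes had 1 or a few such libraries. Trnd in Shell HC_Coc 4-9 was at 68.5 times its median and Trnl2 in 14-F at 49.9 times. Trnl1 reached 335 CPM (16.8 times) in Core Ext_Sal 3-F, and the Core Ext difference of Trnl1, -1.50, was -0.01 without that library. Trnm reached 493 CPM (8.42 times) in Core Ext_Coc 1-F, and its Core Ext difference of 0.74 was -0.16 without it. Trni was at 55.8 CPM in Core Ext_Coc 2-3 and 50.7 CPM in Core Ctx_Coc 19-F, and in both its neighbour Trnq was also high, at 63.1 and 62.1 CPM, against medians of 5.08 CPM for Trni and 11.5 CPM for Trnq. Genes that lie next to each other can share reads over their joined ends, and the gene boundaries used in counting are not known here.

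The genes beside a high gene were also read. For the 7 pairs above 30 times the median, the genes on either side were at 0.477 to 1.73 times their own medians in the same library (14 values). For Trnd in 4-9 they were Trns1 at 0.987 times and COX2 at 0.938 times, and for Trnl2 in 14-F they were Trns2 at 0.864 times and ND5 at 0.970 times. In these 7 pairs the high value stood in 1 gene and not in the genes beside it. Among the less high pairs, besides Trni with Trnq, a neighbour was at over 2 times its median beside Trns2 in Core Ctx_Coc 1-14 (Trnl2 at 2.76 times its median), Trnm in Core Ext_Coc 1-F (Trnq at 2.69 times), and in 17-F beside Trnc (Trnn at 2.70 times), Trnl2 (Trns2 at 2.79 times) and Trnt (Trnp at 3.84 times).

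**Figure D3:**
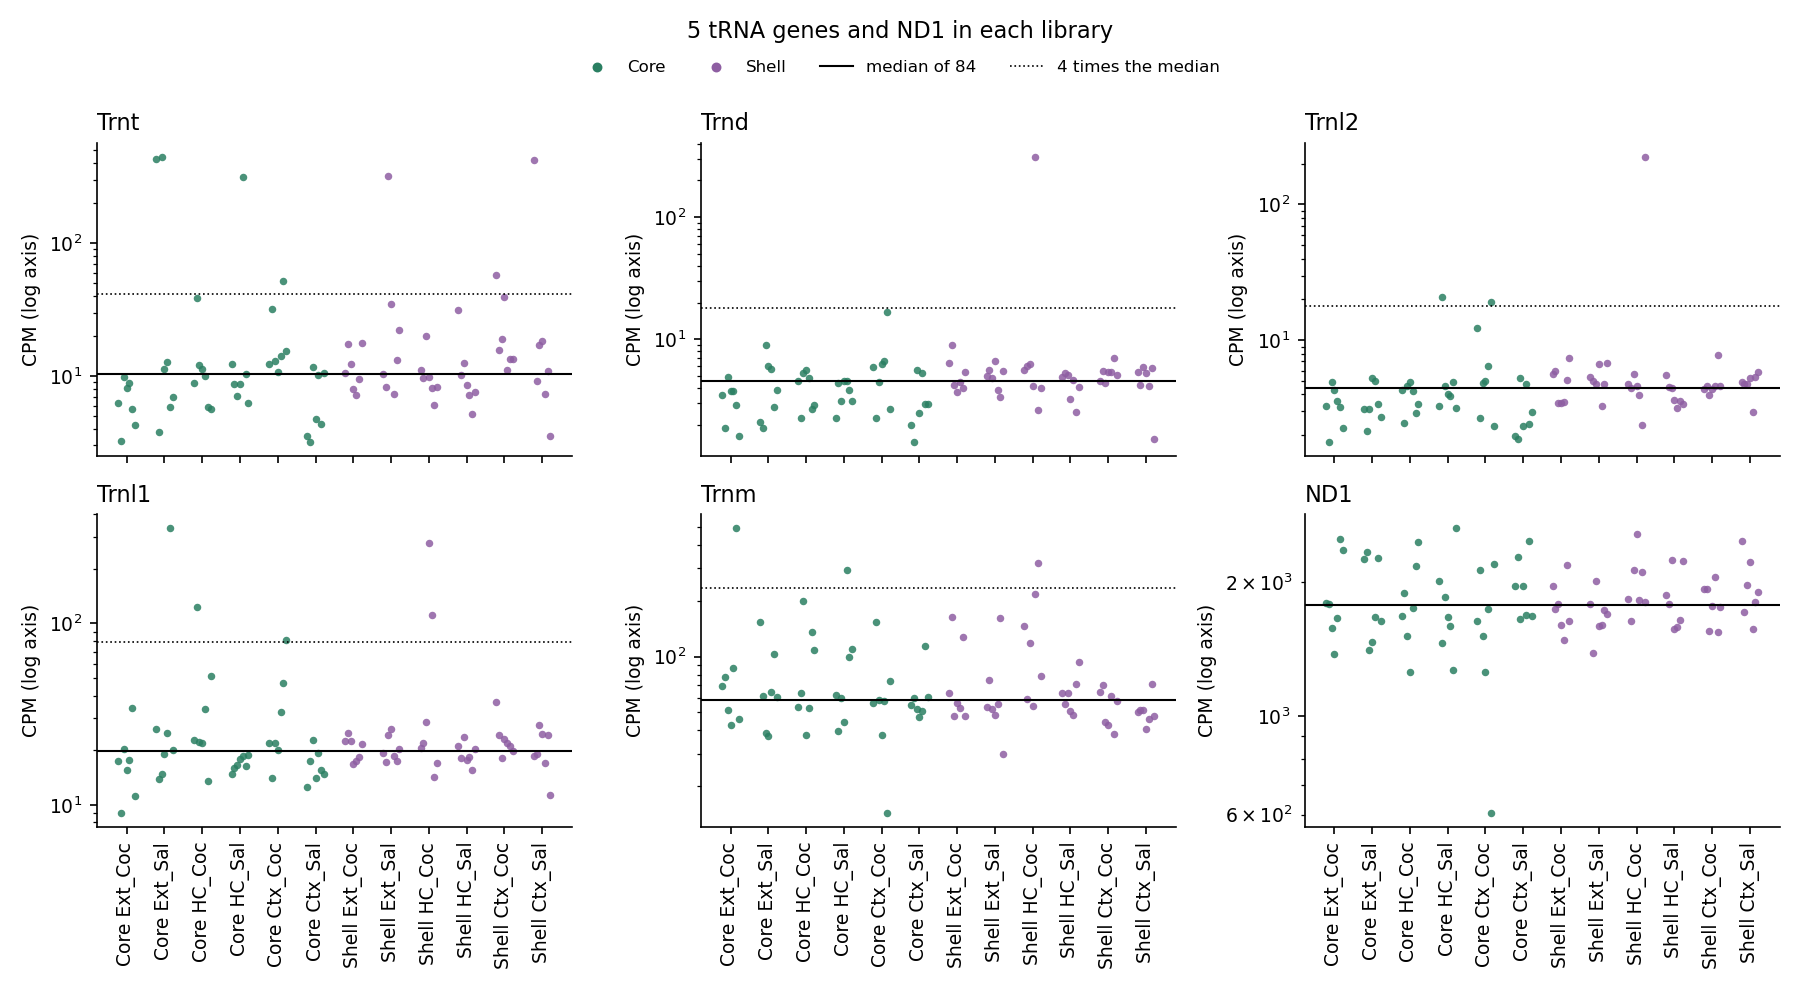
CPM on a log axis of 5 transfer RNA genes with high single libraries and, for contrast, of ND1, in each of the 84 libraries by group, with each library as a point, the median over all libraries as a solid line and 4 times the median as a dotted line. For Trnt 5 Sal libraries lie at 318 to 444 CPM above a median of 10.3 CPM, and for Trnd 1 library of Shell HC_Coc lies at 310 CPM.

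The second question of the design was whether the 3 conditions differed within a drug group. In each of the 12 comparisons of conditions, 0 of 35 members passed edgeR's test, with a background of 0% of all genes. Between 1 and 10 members had an unadjusted p under 0.05, and the lowest adjusted p of a member was 0.29. DESeq2 gave 0 members in all of these but Shell Coc Ctx against HC, where Trnm passed (log2 difference -1.66, DESeq2 adjusted p = 0.036). The joint test over the 6 groups of a subregion gave 0 members in Core (0 messenger RNA and 6 transfer RNA genes at an unadjusted p under 0.05) and 0 in Shell (2 and 9), again with a background of 0%.

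In Shell the messenger RNAs were lower in Ext than in HC in both drug groups, with median log2 differences of -0.24 (Coc) and -0.26 (Sal) and 13 of 13 genes below 0 in each. With the receptor background as a covariate the Coc value turned to 0.03 (7 of 13 above 0). Shell Coc Ctx against HC had a median of -0.29 (13 of 13 below 0), and Shell Sal Ext against Ctx had -0.29 (13 of 13 below 0). In Core the sign of Ctx against HC differed between the drug groups, at -0.36 in Coc (13 of 13 below 0) and 0.20 in Sal (13 of 13 above 0), and this difference between the drug groups was not tested. The Coc value was -0.15 without 17-F and -0.13 without the F series (12 of 13 below 0 in both), and the Sal value turned to -0.18 with the receptor background as a covariate (13 of 13 below 0). These comparisons share groups with each other, and none of their messenger RNA values passed the test.

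Shell and Core libraries differed in some transfer RNA genes, in a design where subregion and numbered series cannot be told apart. In the fit over all 84 libraries, 7 of 22 transfer RNA genes and 0 of 13 messenger RNA genes passed, against 13.3% of all genes. Of the 7, 6 were higher in Shell and 1 lower, where 4.56% of all genes were higher and 8.77% lower. DESeq2 gave 6 members, and 6 passed edgeR's test without library 4-9 of Shell HC_Coc. This fit treats the 84 libraries as independent. With same-numbered Core and Shell libraries of the numbered series as replicate blocks, only Trnp, Trnc and Trnr passed. The messenger RNA median was then 0.002, with 7 of 13 above 0. All-gene shares are not given here for the DESeq2 fit, the fit without 4-9 and the block fit. Their counts of members therefore cannot be set against all genes. In the fit over all 84 libraries the messenger RNAs had a median log2 difference, Shell minus Core, of -0.18 with 13 of 13 below 0. With DESeq2's size factors it was 12 of 13, with ND6 at 0.002. In the main fit 0 of them had an unadjusted p under 0.05. The transfer RNAs had a median of 0.17 with 15 of 22 above 0. The all-gene median was 0.05.

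Trnp was higher in Shell by 0.66 ± 0.15 on the log2 scale (SE, edgeR adjusted p = 0.00074), with 3.95, 9.29 and 51.6 CPM as the lowest, median and highest of 42 Core libraries and 5.88, 15.1 and 186 CPM in Shell. Without Shell HC_Coc 3-9, the library at 186 CPM, the difference was 0.43 (adjusted p = 0.0026). Trnd was higher by 0.76 ± 0.20 (adjusted p = 0.0046), with medians of 3.79 CPM in Core and 5.06 CPM in Shell and highest values of 16.7 and 310 CPM. Without Shell HC_Coc 4-9, the library at 310 CPM, the difference was 0.22 and did not pass (adjusted p = 0.085). Trnh, the transfer RNA for histidine, was higher by 0.32 ± 0.09 (adjusted p = 0.0048), with 5.42, 11.1 and 32.2 CPM in Core and 6.52, 14.1 and 35.9 CPM in Shell. The ranges of Core and Shell overlapped in all 3 genes.

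Trnr (arginine), Trnc (cysteine) and Trnk (lysine) were higher in Shell by 0.30 ± 0.09, 0.30 ± 0.10 and 0.44 ± 0.15 on the log2 scale (SE, edgeR adjusted p = 0.014, 0.025 and 0.040). Their medians were 5.41, 6.97 and 14.5 CPM in Core and 6.59, 9.33 and 18.7 CPM in Shell. Trnq, the transfer RNA for glutamine, was lower by 0.45, at -0.45 ± 0.14 (adjusted p = 0.022). It had 6.92, 11.7 and 63.1 CPM in Core and 7.47, 11.3 and 21.0 CPM in Shell, so that its medians were nearly equal. The highest Core values were those of 2-3 (63.1 CPM) and 19-F (62.1 CPM). The difference was not fitted with these libraries alone left out.

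Subregion and numbered series cannot be told apart, since series 1 and 2 hold Core only and series 3 and 4 Shell only. In the F series alone, which holds both, 0 of 35 members passed (3 with an unadjusted p under 0.05), and Trnd and Trnc were at 0.03 and -0.10 there. The share of all genes that passed in that fit is not given here. With the receptor background as a covariate 21 members passed, 12 messenger RNA genes and 9 transfer RNA genes with a messenger RNA median of 0.27, against 41.3% of all genes. All 21 were higher in Shell, as were 29.5% of all genes. The direction of the messenger RNAs between the subregions turned with that covariate, and 9 of 13 were below 0 without the F series (median -0.06).

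Oligodendrocyte marker levels differed between the subregions as well. The summed level of 5 oligodendrocyte markers was 352, 2915 and 5229 CPM (lowest, median and highest) in Core and 636, 982 and 1301 CPM in Shell, and 5 of 5 were lower in Shell. Cortical glutamatergic markers were at medians of 58.8 CPM in Core and 57.7 CPM in Shell. The part of this marker difference in the transfer RNA values was not tested.

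The drug differences were also compared between the subregions within each condition. In each of these 3 interactions 0 of 35 members passed edgeR's test (2 in Ext, 3 in HC and 5 in Ctx at an unadjusted p under 0.05), with a background of 0%. In HC the values of Trnl2, 3.27 ± 0.68 (SE, edgeR adjusted p = 0.25), and Trnd, 3.26 ± 0.71 (adjusted p = 0.27), rest on the libraries 14-F and 4-9 described above. DESeq2 gave 1 member in HC, Trnl2, with an adjusted p of 0.0054.

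The messenger RNAs were also compared with the receptor background, fitted as a slope with group and series in the model. All slopes are log2 differences for each doubling of receptor CPM. In Core 13 of 13 messenger RNA genes were lower with more background, with a median of -0.47 and a range from -0.51 (ND4L) to -0.39 (ND3). Without 17-F it was again 13 of 13, with a median of -0.39. In Shell 13 of 13 were lower, with a median of -0.32 and a range from -0.52 (ATP6) to -0.19 (ND6). Of all genes 93.2% passed this test in Core (53.7% higher and 39.6% lower) and 86.3% in Shell (49.4% higher and 36.9% lower), with all-gene medians of 0.16 and 0.14, so that passing is not particular to the members.

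**Figure D4:**
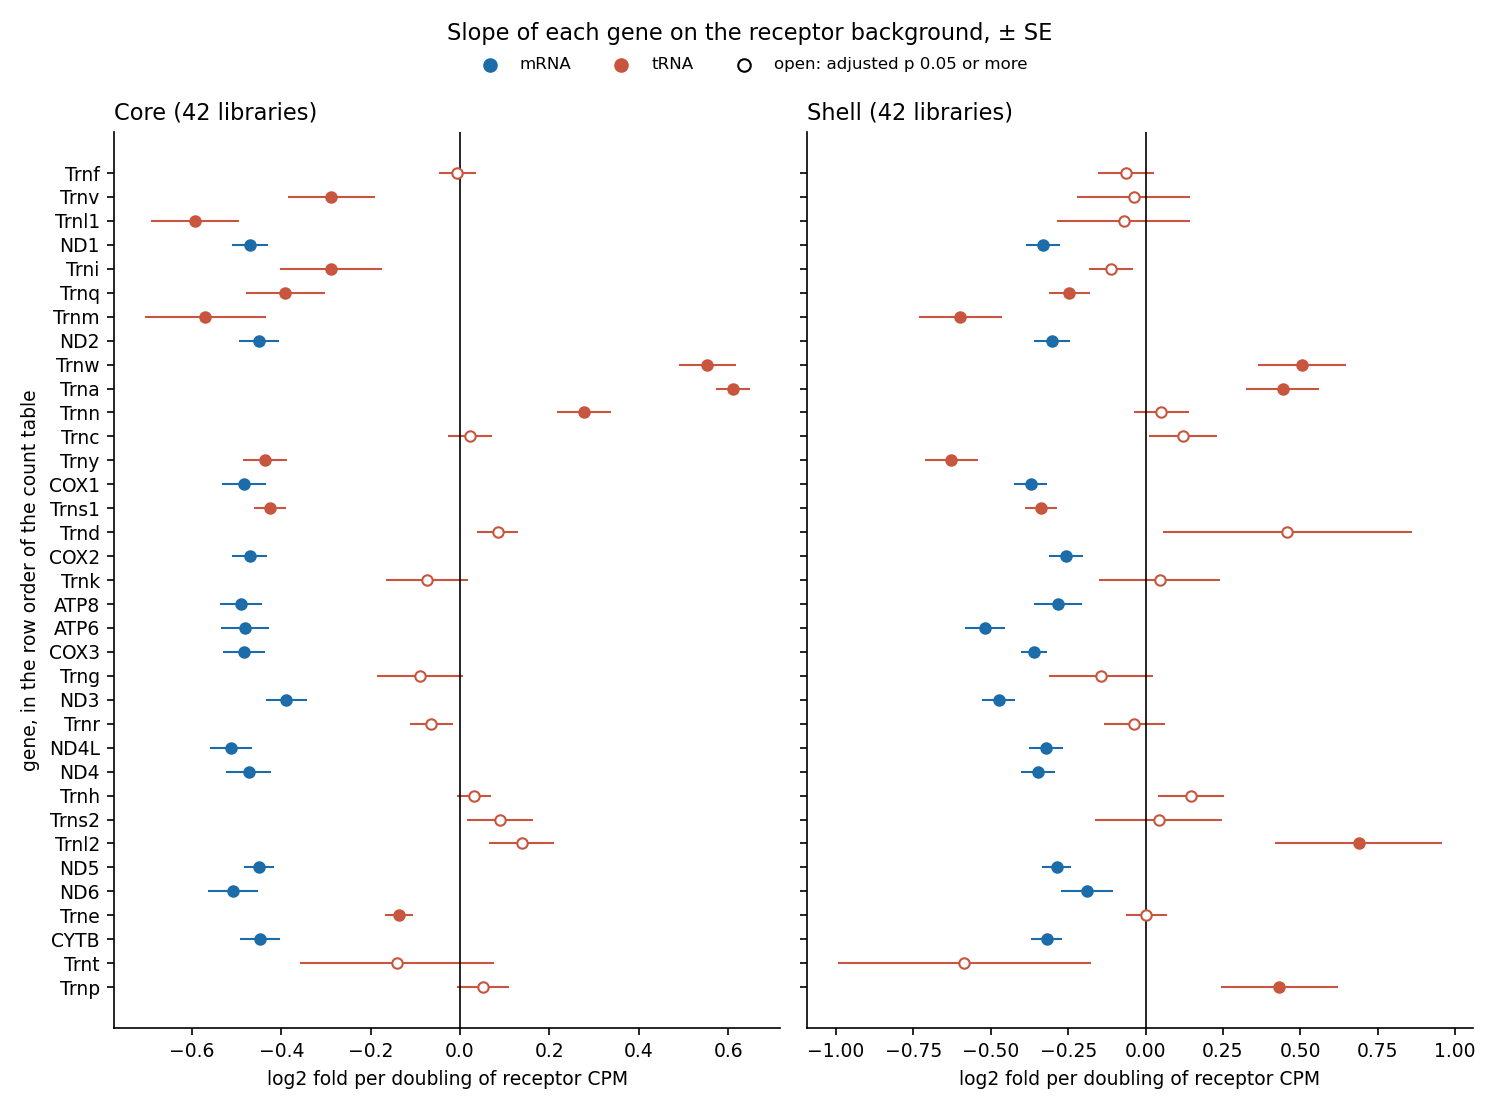
Fitted slope of each of the 35 mitochondrial genes on the receptor background in Core and in Shell, as the log2 difference for each doubling of receptor CPM, with bars of 1 SE and filled points for genes that passed the test. The 13 messenger RNA genes lie below 0 in both subregions, and Trna and Trnw lie above 0 in both.

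Transfer RNAs did not move as a class, with medians of -0.07 in Core and -0.02 in Shell. In Core 3 were higher with more background, Trna (0.61 ± 0.04, SE), Trnw (0.55 ± 0.06) and Trnn (0.28 ± 0.06), which are neighbours in the genome. In Core 8 were lower: Trnl1 (-0.59), Trnm (-0.57), Trny (-0.44), Trns1 (-0.43), Trnq (-0.39), Trni (-0.29), Trnv (-0.29) and Trne (-0.14). Trny belongs to the same gene cluster as Trnw, Trna and Trnn and lay on the other side. Some of the lower genes had single high libraries with little background. In 19-F, which had the lowest receptor background (72.4 CPM), Trnv was at 46.0, Trni at 50.7 and Trnq at 62.1 CPM. Trnl1 was at 335 CPM in 3-F and 123 CPM in 1-9, with a receptor background of 78.3 and 95.7 CPM. Trni and Trnq were also high in 2-3, where the receptor background was 1327 CPM. These slopes were not fitted without those libraries.

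In Shell 4 transfer RNA genes were higher with more background, Trnl2 (0.69 ± 0.27, SE), Trnw (0.51 ± 0.14), Trna (0.44 ± 0.12) and Trnp (0.43 ± 0.19), and 4 were lower, Trny (-0.63), Trnm (-0.60), Trns1 (-0.34) and Trnq (-0.25). Trnw and Trna were thus higher and Trny, Trnm, Trns1 and Trnq lower in both subregions. Trnl2 was at 223 CPM in 14-F and Trnp at 186 CPM in 3-9, both of Shell HC_Coc. Library 6-F of the same group had the lowest receptor background in Shell (97.5 CPM), with Trnm at 321 CPM. The Shell slopes were not fitted without these libraries. Trnw ranged from 2.82 to 125 CPM over the 84 libraries and was under 0.25 times its median in 13 of them, Trna in 14 and Trnn in 4. These slopes are relations between measures of the same libraries, and whether the background reads fall on these genes themselves was not tested.

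**Figure D5:**
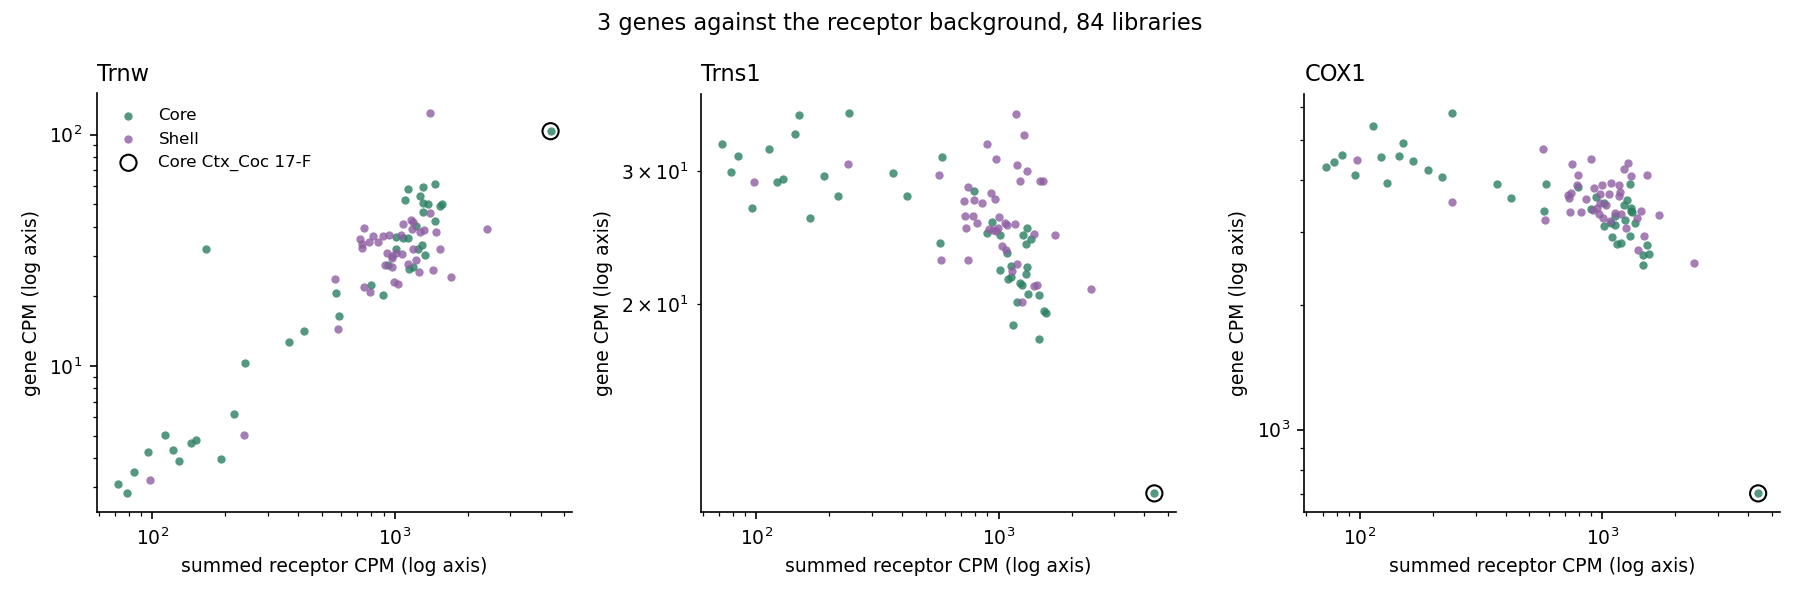
CPM of Trnw, Trns1 and COX1 against receptor CPM, both on log axes, with each of the 84 libraries as a point coloured by subregion and library 17-F ringed. Trnw is higher and Trns1 and COX1 are lower where the receptor background is higher, and 17-F is at the far end with 4395 receptor CPM, 103.5 CPM of Trnw and 701 CPM of COX1.

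Series were compared within a subregion. In Core 13 of 13 messenger RNA and 12 of 22 transfer RNA genes differed among series 1, 2 and F, against 77.6% of all genes. COX1 had series medians of 3918, 3213 and 4370 CPM in the order 1, 2 and F, Trny 65.6, 53.8 and 110.3 CPM, and Trnw 15.3, 43.3 and 4.89 CPM. Messenger RNAs and Trny were thus highest and Trnw lowest in F. With the receptor background as a covariate 1 member passed, against 5.8% of all genes. In Shell 3 members differed among series 3, 4 and F, against 0.734% of all genes: Trni (5.47, 4.57 and 6.83 CPM), Trnq (11.4, 10.2 and 14.7 CPM) and Trnn (24.8, 21.8 and 18.5 CPM). With the receptor background as a covariate 6 members passed in Shell, against 3.2% of all genes. Drug and condition are spread over the series in each subregion, and series was a covariate in the comparisons above.

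The mitochondrial genes work with nuclear ones, and 9 lists of these were read from the same fits: the nuclear subunits of complexes I to V, and factors of mitochondrial transcription, RNA processing and decay, transfer RNA modification and aminoacylation. They were chosen with earlier results of these data known. In each comparison of drugs, of conditions and of subregions 0 of the 148 genes tested passed edgeR's test, with between 0 and 19 at an unadjusted p under 0.05 (16 in Shell against Core). In the transcription list the lowest p in Shell against Core were those of Polg, the mitochondrial DNA polymerase, and Nrf1, a regulator of nuclear respiratory genes, which did not pass.

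With the receptor background 140 of the 148 were lower and 4 higher in Core, and 134 were lower and 4 higher in Shell. Of all genes 39.6% were lower and 53.7% higher in Core, and 36.9% were lower and 49.4% higher in Shell. Other genes of similar level were not compared with these lists, so whether such slopes are particular to them was not tested. The nuclear respiratory genes had slopes like those of the mitochondrial messenger RNAs, with medians of -0.40 in Core and -0.41 in Shell for complex I (36 of 36 lower in both), -0.45 and -0.44 for complex III (9 of 9), -0.46 and -0.45 for complex IV (10 of 10) and -0.45 and -0.47 for complex V (15 of 15). Complex II, which has no mitochondrial subunit, had -0.35 and -0.34 (4 of 4). Ndufs1, a core subunit of complex I, had -0.39 ± 0.03 (SE) in Core and -0.37 ± 0.04 in Shell.

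Factors that handle RNA had smaller slopes. In Core the median was -0.31 for processing and decay (18 of 19 lower), -0.27 for transcription (17 of 18), -0.15 for transfer RNA modification (14 of 16) and -0.10 for aminoacylation (17 of 21). Lrpprc, which stabilises mitochondrial messenger RNAs, had -0.31 ± 0.02 (SE) in Core. The 4 genes that were higher were Prorp, the nuclease that cuts the 5′ ends of mitochondrial transfer RNAs (0.08 ± 0.02 in Core and 0.15 ± 0.02 in Shell), Nsun3, which modifies the methionine transfer RNA (0.31 ± 0.02 and 0.36 ± 0.04), and the synthetases Wars2 for tryptophan (0.20 ± 0.01 and 0.23 ± 0.02) and Fars2 for phenylalanine (0.05 ± 0.02 and 0.08 ± 0.02).

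The genes most like the members in pattern were sought by Pearson correlation of log2 CPM over the 42 libraries of a subregion, as a description. For the summed messenger RNAs in Core they were Pabpc1 (r = 0.989), Ttc14 (0.989), Msl1 (0.988), Gnb1 (0.988) and Cacnb1 (0.988), and Pabpc1 led again without 17-F (0.986). In Shell the nearest were Purg (0.935), Nufip2 (0.934), Hnrnpu (0.934) and Csnk1a1 (0.931). For the summed transfer RNAs the highest values were lower, 0.781 in Core (LOC103693700) and 0.675 in Shell (Rnf5). The libraries share their depth and their background across all genes, and these correlations hold that shared part.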

How the data were processed

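Bulk RNA-seq was measured in 84 libraries of rat nucleus accumbens. The authors deposited raw counts per gene, made with featureCounts on the mRatBN7.2 build per the submitters' processing notes, and FPKM values of the same libraries. The labels name a stranded total RNA kit and a column-based extraction of total RNA. Which aligner, gene annotation and strand option were used, and whether unique molecular identifiers were counted, is not given in the sources used here. Without the strand setting, reads of a mitochondrial gene and of an overlapping or antisense transcript cannot be told apart, and reads that also match near-identical nuclear copies of mitochondrial sequence may have been dropped or shared. Mature transfer RNAs are short and modified, and how much of them the library preparation keeps is not known here.

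Counts were tested with edgeR 4.0.16 (quasi-likelihood F test, R 4.3.3, limma 3.58.1), with filterByExpr by group, TMM scaling and Benjamini-Hochberg adjustment over all genes kept (31370 in Core, 30911 in Shell, 32145 in both). Fits within a subregion used group and series (42 libraries), and the fit over both used group and F against numbered series (84 libraries). Fold changes are log2 values from the fits to the deposited counts, with the default settings of each tool. A prior count of 2 was used only for the log2 CPM of genes in the pattern correlations. DESeq2 1.42.0 was the alternative tool. CPM are counts over the library total. Receptor background was the summed CPM of 2033 olfactory and vomeronasal receptor genes. On simulated data for Shell HC, edgeR recovered 80% of genes changed 2-fold and 100% of those changed 4-fold (30911 genes), with 10 false calls. For Shell against Core it recovered 96% and 100% (32145 genes), with 12 false calls. The simulation drew each gene independently, without series or receptor background effects, and changed only genes above 1 CPM. These rates may therefore not hold for the measured libraries. All members are named by rule, of the nuclear lists up to 3 genes of lowest p in each direction, and in pattern the 5 nearest genes, of which 1 in Shell is not reported here. The members, lists and alternatives were chosen with earlier results of these data known. No mitochondrial sequence was used here. Counting error is only part of the spread between libraries. Counts of members that passed in an alternative fit, or that had an unadjusted p under 0.05, can be compared with all genes only where the all-gene share or count is printed.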

Additional observations from a re-analysis of the deposited data

Results flagged for a closer look

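In 58 of 456 combinations of a gene or class with a group of 7 libraries, the highest or the lowest library stood far from the other 6, by the gap to the nearest library against the range of the group. Chance flags about 1 group in 20 in this way, and genes of one library are not independent. Values are CPM, with the median of the other 6 libraries of the group where it is given, or percent of counts for the sums.

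Library 17-F of Core Ctx_Coc was low for the summed messenger RNAs, at 0.576% against 1.94%, and had 12.6 transfer RNA counts for every 100 messenger RNA counts against 2.48. It was low for COX1 (701 CPM against 3371), ATP6 (818 against 3307), ATP8 (124 against 384), COX3 (430 against 1922), ND4 (630.0 against 2342), ND4L (90.3 against 309.5) and CYTB (597 against 1940). In the same group 19-F was high for Trnq (62.1 CPM) and Trny (100.1 CPM).

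Among the other messenger RNA values, Core HC_Sal 15-F was high for ATP8 (883 CPM) and ATP6 (7165 CPM). In Shell HC_Sal, 8-F was low for ND3 (71.2 CPM) and 16-F high for ND4L (459 CPM). Shell Ext_Coc 2-F was high for ND4 (3619 CPM), Shell HC_Coc 4-9 for ND6 (853 CPM against 420), and Shell Ctx_Sal 4-18 was low for the summed messenger RNAs (1.86%). Core HC_Sal 2-12 was high for the summed transfer RNAs (0.0925% against 0.0369%).

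Trnt was high in Shell Ctx_Sal 3-17 (424 CPM against 10.0), Shell Ext_Sal 4-4 (322 against 11.8) and Core HC_Sal 2-12 (318 against 8.72), with a smaller one in Core HC_Coc 1-9 (38.9 CPM). Trnd was high in Shell HC_Coc 4-9 (310 CPM against 4.87), Trnl2 in Shell HC_Coc 14-F (223 against 4.52), Trnp in Shell HC_Coc 3-9 (186 against 15.6) and Trns2 in Shell HC_Coc 4-8 (68.4 against 8.74). Trnm was high in Core Ext_Coc 1-F (493 CPM against 60.6) and Trnl1 in Core Ext_Sal 3-F (335 against 19.5).

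Libraries of the F series were flagged in the Trnw cluster and for Trny. Shell Ctx_Sal 24-F was low for Trnw (5.02 CPM), Trna (3.58 CPM), Trnn (7.60 CPM) and Trnd (1.54 CPM), and Shell HC_Coc 6-F was low for Trnw (3.20 CPM), Trna (2.77 CPM), Trnn (8.47 CPM) and Trnh (6.84 CPM). Trny was high in Core Ctx_Sal 21-F (167 CPM), Core HC_Sal 15-F (157 CPM), Shell Ext_Coc 2-F (149 CPM) and Shell Ctx_Sal 22-F (91.8 CPM). Trnm was high in 21-F (115 CPM) and 22-F (71.4 CPM), and Trnq and Trng in 2-F (21.0 and 20.1 CPM). Trnw was high in Shell Ext_Sal 4-5 (125 CPM against 36.7).

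The remaining flags were Trnk in Shell HC_Sal 3-12 (71.9 CPM), Trng in Shell Ctx_Coc 4-13 (34.5 CPM) and, as a low value, in Core HC_Coc 1-9 (2.81 CPM), Trnl1 in Shell Ctx_Coc 3-14 (36.7 CPM) and Trnl2 in Core HC_Sal 1-12 (20.8 CPM). Trnl2 was also high in Shell Ctx_Coc 18-F (7.78 CPM) and low in Shell Ctx_Sal 4-18 (2.97 CPM). Trns2 was high in Shell HC_Sal 3-11 (16.8 CPM) and Core HC_Sal 7-F (10.4 CPM), Trnc in Shell HC_Coc 4-7 (19.4 CPM), Trnr in Shell Ext_Coc 3-3 (15.1 CPM) and Trnv in Core Ext_Sal 2-6 (9.98 CPM).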

How the results depend on the processing

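For counts of members that passed, 273 results under an alternative were within 1.5 times the reported count and 9 were not. With the receptor background as a covariate 21 members passed in Shell against Core, 1 among the Core series and 6 among the Shell series, against 41.3%, 5.8% and 3.2% of all genes. With Shell HC_Coc 3-9 or 4-9 left out, 6 to 7 passed in Shell against Core. In the F series alone 0 passed there, also without 17-F (0, an alternative added after the data were seen). Without series as a covariate 3 passed among the 6 Shell groups. With DESeq2's Wald test 1 passed in Shell Coc Ctx against HC and 1 in the HC interaction of drug and subregion. For single genes 238 values kept their direction and side of the threshold, 21 no longer passed, 1 newly passed, 3 moved and 5 turned. The values that turned were Trnc in Shell against Core (-0.10 in the F series alone), Trnm in Core Ext (-0.093 without the F series, and -0.16 to 1.06 with 1 library left out at a time, the lowest without Core Ext_Coc 1-F) and Trnt in Core HC (0.73 without 2-12) and Shell Ctx (1.07 without 3-17), where the libraries left out were chosen after the data were seen. Apart from the libraries left out, the cause was not tested. Core and Shell libraries share numbers in the labels, and the labels do not say whether a shared number stands for an animal. Of the same-numbered pairs, 26 of 30 deviated together at a correlation above 0.1 (lowest -0.0175, median 0.257, against -0.0123 for other pairings). In 12 of 30 the Core library correlated best with its own number. Same-numbered libraries were thus more alike than other pairings, and the main fit does not take this into account. With the number as a replicate block 3 members passed in Shell against Core (Trnp, Trnc and Trnr), the messenger RNA median turned from -0.18 to 0.002 (7 of 13 above 0), and 0 members passed in the 3 interactions. Transfer RNA counts, with gene medians over the libraries from 75 to 1065, limit the precision of single genes.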
